A study of Mus musculus with 48 samples.

Results

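The lysosomal genes described here are 43 enzymes, membrane proteins and regulators of the lysosome, chosen by symbol from a fixed list and found through their Ensembl identifiers in the count tables. All 43 were present among the 46983 identifiers, and all 43 passed the filter on low counts, so that they were among the 19970 genes tested. By role they were 9 cysteine proteases (8 cysteine cathepsins and legumain), 3 other proteases, 10 glycosidases, 4 sulfatases, 10 genes of lipid handling, 5 membrane proteins and 2 regulators.

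Lysosomes are acidic compartments in which hydrolases break down proteins, glycans, sulfated sugars and lipids taken up from outside the cell or delivered by autophagy. Cathepsins cut proteins, glycosidases and sulfatases remove sugars and sulfate groups from glycans and glycolipids, and the limiting membrane is covered with heavily glycosylated proteins such as Lamp1. In the brain, lysosomal enzymes are made by all cell types, phagocytic microglia and macrophages are known for a large lysosomal compartment, and the loss of single enzymes causes lysosomal storage diseases with neurodegeneration. The transcription factor Tfeb is known to bind the sequence CACGTG within a longer element near the start of many lysosomal genes.

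RNA was measured in 48 libraries of 11 groups of C57Black/6 male mice aged 3 months. In the MCAO groups, the middle cerebral artery was permanently occluded by coagulation and cut, which leaves a small infarct in the parietal cortex, and tissue was taken at 3 h, 12 h, 24 h, day 3 and day 7 (5 libraries a time, 4 at 24 h). Sham groups (4 libraries a time) went through the same surgery without coagulation, and the control (4 libraries) was intact cortex of mice of the same age. The tissue held affected and unaffected cortex together according to the sample labels, while the description of the series speaks of forebrain hemispheres, so the share of lesion in a library is not known. The study's text counts the bulk replicates of a condition as mice, the labels tie no library to a mouse, and p-values measure the spread between these libraries.

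Libraries were made with a 3′ end kit, in which a transcript gives about 1 read whatever its length, and levels are given as CPM (counts scaled to the same library total) after TMM scaling, in the order of replicates A to E. Gene counts per library ranged from 1522668 to 2826735, so levels of a few CPM rest on a handful of reads. Neuron markers were high in all 48 libraries, and the 10 of them summed to 11225 to 12153 CPM in the control. A gene counted as called when the quasi-likelihood test of edgeR gave it a p under 0.01 after Benjamini-Hochberg adjustment and its log2 fold change lay beyond 0.58 in either direction. All p-values below are adjusted over the 19970 genes. In the groups of day 3 and day 7, 3 libraries are named first, picked from the values themselves. MCAO day 7 replicate C was highest of its group in all 22 members called on day 3 or day 7. MCAO day 3 replicate A was lowest of its group in all 22, and sham day 7 replicate D held Psap at 79.4 CPM. Libraries of 12 h with outlying Psap are given with that gene. The calls that each of the 3 libraries named first carries are given below with and without it.

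Of the members with a listed promoter in RefSeq (37 of 43), 13 held CACGTG in the 250 bases before at least 1 listed start, against 6.86% of all 27025 genes counted the same way (6.02% of the 32851 promoters taken one by one). Among the members called on day 3 or day 7, 6 of 19 held it, and among the members called on neither day it was held by 7 of 18. CACGTG reads the same on both strands, and the longer TCACGTGA, which contains it, stood in the promoters of Ctsa, Ctsd, Gla and Mcoln1, against 0.907% of genes. GAGGAAGT, a form of the element bound by the myeloid factor PU.1, was found on either strand in Ctsc and Gla, against 2.79% of genes. These matches describe letters in a window and say nothing of binding. The windows around the motif are shown for the 6 members called on day 3 or day 7 that hold it, to let a reader see its setting. They come from RefSeq on GRCm38.p6, in the order of their fold change on day 3. Windows of the 7 uncalled members that hold it are not shown. Each is written 5′ to 3′ on the strand of the gene, with CACGTG in capitals, and holds at most 30 bases of annotated exons.
Ctsd (chr7:142388027-142388077, minus strand): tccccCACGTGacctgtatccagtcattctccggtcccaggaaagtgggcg
Naglu (chr11:101069981-101070041, plus strand): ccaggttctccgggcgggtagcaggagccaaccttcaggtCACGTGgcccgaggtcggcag
Lgmn (chr12:102439096-102439181, minus strand): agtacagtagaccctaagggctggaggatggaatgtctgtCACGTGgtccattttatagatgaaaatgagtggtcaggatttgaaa
Ctsl (chr13:64370724-64370770, minus strand): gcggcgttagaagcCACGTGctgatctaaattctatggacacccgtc
Ctsa (chr2:164833737-164833766, plus strand): aaaagtgaacaatgagcaaactgtCACGTG
Lamp1 (chr8:13159060-13159145, plus strand): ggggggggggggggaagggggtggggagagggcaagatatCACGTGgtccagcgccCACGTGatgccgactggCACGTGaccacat
Within the 250 bases Lamp1 held the motif 4 times, of which 3 are shown, and Ctsd 2 times, of which 1 is shown. In Lgmn and Ctsa the motif lay before the second of 2 listed starts, which is inside the annotated gene. In Naglu and Ctsl, with 1 listed start each, the motif also lay inside the gene as annotated by Gencode. The motifs shown for Ctsd and Lamp1 lay before the annotated gene.

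Lysosomal genes rose on day 3 and day 7 after MCAO, and none was called at an earlier time. Against sham, 20 of 43 members rose on day 3 and 0 fell, where 3.76% of all genes tested rose and 0.260% fell. On day 7, 19 rose and 0 fell, where 2.07% of all genes rose and 1.43% fell. At 3 h, 12 h and 24 h no member was called by edgeR, where 0.110%, 0.411% and 0.0901% of all genes were called. At an unadjusted p under 0.05, 1 member passed at 3 h (Ctsk, lower), 4 at 12 h (Ctsc, Galns and Plbd1, higher, and Ppt1, lower) and 4 at 24 h (Ctsc, Ctss and Lamp2, higher, and Arsb, lower), and DESeq2 called 0 at each. Over all genes 8.45%, 14.6% and 8.80% passed that p. The median log2 fold change of the members was 0.02 at 3 h, 0.03 at 12 h, 0.21 at 24 h, 0.91 on day 3 and 0.96 on day 7, beside 0.00, 0.01, 0.02, 0.01 and 0.06 over all genes.

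**Figure D1:**
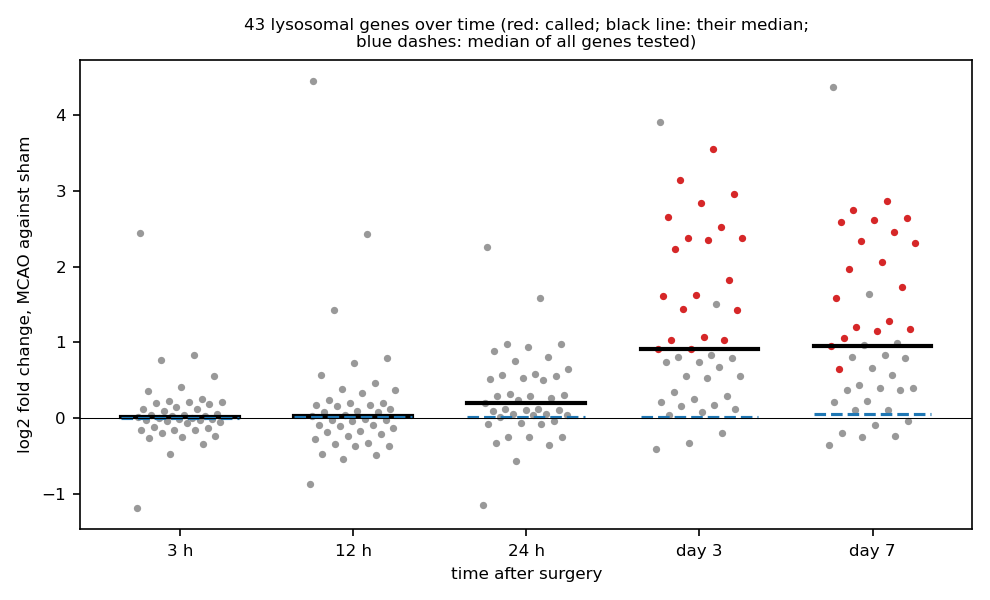
Log2 fold change of the 43 lysosomal genes, MCAO against sham, at each time (y axis; 1 point per gene, red where called), with their median as a black line and the median of all 19970 genes as blue dashes. The median stayed near 0 at 3 h and 12 h and stood at 0.91 on day 3 and 0.96 on day 7, with no red point below 0.

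As a sum over the 43 genes, control libraries read 3507, 3665, 3486 and 3069 CPM and sham day 3 libraries 3329, 3084, 3483 and 4334 CPM. After MCAO the sum was 3988, 3511, 3622 and 3738 CPM at 24 h, 3945, 6698, 11635, 7759.6 and 11137 CPM on day 3 and 5547, 5186, 20797, 5119 and 6071 CPM on day 7. On day 3, replicate A lay below the highest sham and the other 4 libraries above all shams. That sham, replicate D, held Psap at 1497 CPM, against 635 to 964 CPM in the other shams of day 3. MCAO day 3 replicate A held Psap at 785 CPM, and a sum without Psap was not taken. On day 7 all 5 lay above all shams (3496, 3199, 3673 and 2870.0 CPM). Ctsd alone made up a median of 9.74% of this sum in the control, 31.2% on day 3 and 19.0% on day 7 after MCAO, and the sum of the other 42 genes was 3472, 4875, 7514, 5340.1 and 7133 CPM on day 3 against 2978, 2764, 3174 and 3995 CPM in sham.

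Of the 22 members called on either day, 17 were called on both, which is 85.0% of the day 3 calls and 89.5% of the day 7 calls. The 2 comparisons share no library, but both came from the same fit and share its estimate of the spread. Over all genes, 750 were called higher on day 3 and 413 on day 7. The overlap of those calls was not counted, so whether these shares are particular to the members was not tested. Naglu, Fuca1 and Gm2a were called on day 3 only, and Npc1 and Lamp1 on day 7 only. The difference between the days was itself tested in the same model, and no member differed between them by edgeR (0 of 43, 0% of all genes, 0 members by DESeq2, 3 members at an unadjusted p under 0.05, namely Naglu and Gm2a, smaller on day 7, and Arsb, larger, where 16.2% of all genes passed).

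Single libraries moved these counts. Without MCAO day 7 replicate C, 7 of the 19 members were still called on day 7 (Ctsh, Ctsl, Ctss, Lgmn, Ctsd, Laptm5 and Grn), no other member was, and 0.723% of all genes were called higher and 0.698% lower. The median log2 fold change of the members was then 0.64. Without sham day 7 replicate D, 11 were called, all among the 19 (0.793% of all genes higher and 0.422% lower). The 8 that were not (Ctsb, Ctsc, Ctsa, Hexa, Man2b1, Lipa, Npc1 and Lamp1) kept log2 fold changes of 0.68 (Lamp1) to 2.43 (Ctsc) with adjusted p from 0.0115 to 0.0482. On day 3, 23 members were called without replicate A (5.45% of all genes higher), 13 without replicate C (2.16%) and 13 without replicate E (2.34%). In a fit of only the groups compared, which takes the spread, the scaling and the genes kept from those libraries alone, 11 members were called on day 3 (1.93% of 16777 genes higher and 0.0954% lower) and 3 (Ctsl, Ctss and Lgmn) on day 7 (0.873% of 16383 genes higher and 0.971% lower).

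**Figure D2:**
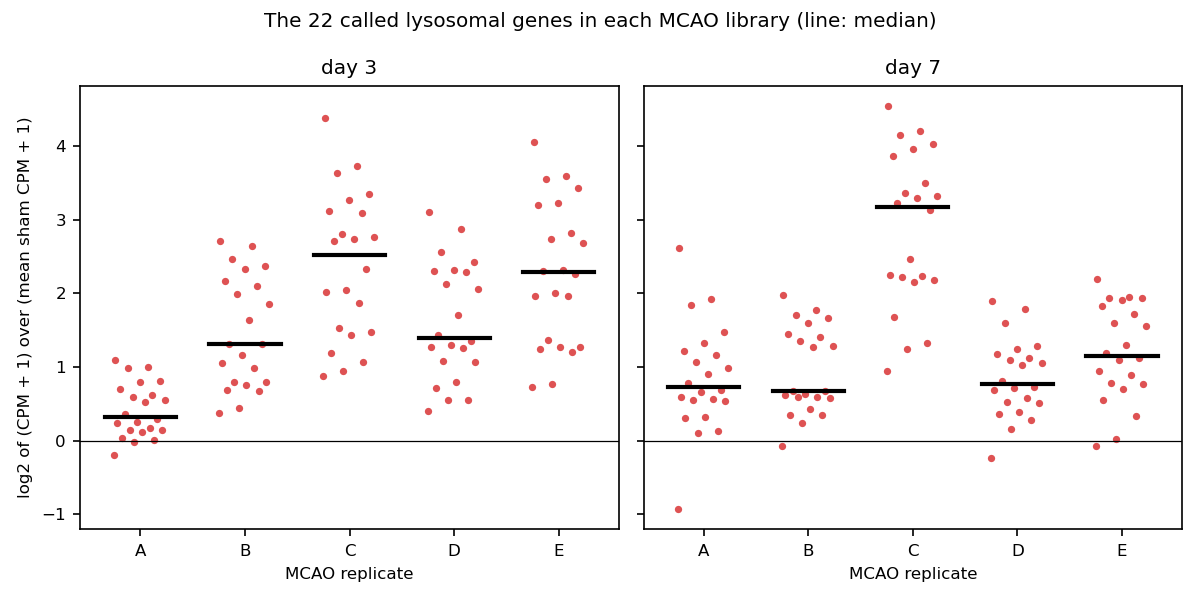
Log2 ratio of each of the 22 called lysosomal genes (y axis; CPM plus 1, over the mean of the shams of the same day plus 1) in each MCAO library of day 3 and day 7 (x axis; line: median of the 22). Day 7 replicate C has a median of 3.18 against 0.68 to 1.16 in the other 4 libraries of day 7, and day 3 replicate A has the lowest median of day 3, 0.33.

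Cysteine proteases held the largest share of calls among the roles, with 7 of 9 rising on day 3 and 7 of 9 on day 7 (median log2 fold change 1.82 and 2.34). Ctsf and Ctsk were not called.

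Ctsc, the dipeptidyl peptidase that activates serine proteases of granulocytes, was a low transcript in sham, at 6.89, 4.15, 4.67 and 3.75 CPM on day 3, and reached 10.7, 29.4, 121, 33.7 and 96.9 CPM after MCAO. On day 7 it was at 7.44, 8.40, 1.64 and 3.19 CPM in sham and 14.4, 15.8, 99.9, 11.5 and 22.5 CPM after MCAO. Its 5 MCAO libraries lay above all shams on both days, with a log2 fold change of 3.55 ± 0.60 (SE) on day 3 (adjusted p = 4.96e-05) and 2.64 ± 0.61 (SE) on day 7 (adjusted p = 0.0037). Leaving out day 7 replicate C, the value was 1.61 (adjusted p = 0.0817). Ctsc was also the member with the lowest p before day 3. At 24 h it read 2.37, 5.06, 6.71 and 9.96 CPM in sham and 30.6, 24.8, 28.8 and 34.2 CPM after MCAO, which do not overlap, with a log2 fold change of 2.26 ± 0.62 (SE) that was not called (adjusted p = 0.125). At 12 h the MCAO libraries spread over 8.16, 15.0, 20.9, 2.35 and 41.7 CPM beside shams of 0.558, 3.13, 3.69 and 4.67 CPM (log2 fold change 2.44 ± 0.65 (SE), adjusted p = 0.0434). Ctsc was called at 12 h when no gene was filtered, and at 24 h when only the groups compared were fitted.

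Ctsz, a carboxypeptidase, read 9.07, 10.6, 13.5 and 15.0 CPM in sham on day 3 and 14.9, 80.4, 173, 111 and 152 CPM after MCAO. The 4 high libraries lay at least 5 times above the shams, and replicate A was level with the highest of them. Its log2 fold change was 3.15 ± 0.51 (SE) on day 3 (adjusted p = 2.36e-05). On day 7 the levels were 18.9, 14.9, 12.5 and 12.3 CPM in sham and 31.7, 40.7, 287, 33.1 and 50.7 CPM after MCAO, without overlap (log2 fold change 2.59 ± 0.50 (SE), adjusted p = 0.000591). Without replicate C the day 7 value was 1.41 (adjusted p = 0.0261).

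Ctsh, an aminopeptidase, was at 17.4, 13.8, 13.5 and 17.8 CPM in sham and 26.2, 108, 168, 82.0 and 178 CPM after MCAO on day 3. Its levels on day 7 were 12.0, 12.6, 17.4 and 17.8 CPM in sham and 34.6, 50.9, 282, 36.9 and 58.9 CPM after MCAO. No MCAO library overlapped the shams on either day, and the log2 fold changes were 2.84 ± 0.44 (SE) (adjusted p = 1.11e-05) and 2.62 ± 0.44 (SE) (adjusted p = 0.000117). It was among the members still called on day 7 without replicate C, at 1.59 (adjusted p = 0.00358).

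Ctss, the cathepsin of myeloid cells that is known for trimming the invariant chain in antigen presentation, was among the better counted proteases. It read 56.2, 66.0, 60.7 and 58.6 CPM in sham and 129.7, 309.5, 591, 298 and 575 CPM after MCAO on day 3, and 68.6, 92.4, 70.9 and 67.1 CPM and 271, 259, 853, 228 and 289.9 CPM on day 7. All MCAO libraries lay above all shams on both days, and its adjusted p was the smallest among the members on each (log2 fold change 2.66 ± 0.31 (SE), adjusted p = 5.04e-08, and 2.34 ± 0.30 (SE), adjusted p = 2.27e-06). Without day 7 replicate C the value was 1.81 (adjusted p = 9.33e-06). Its gene lies next to Ctsk on chromosome 3, and Ctsk, the collagen-degrading cathepsin of osteoclasts, read 2.86, 3.73, 3.82 and 1.82 CPM in sham and 4.61, 4.58, 26.2, 6.72 and 6.26 CPM after MCAO on day 7, without a call (log2 fold change 1.64 ± 0.54 (SE), adjusted p = 0.044).

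Lgmn, the asparaginyl endopeptidase legumain, read 42.1, 39.2, 25.2 and 43.1 CPM in sham and 40.6, 78.6, 259.6, 91.8 and 190.3 CPM after MCAO on day 3, with replicate A inside the sham range (log2 fold change 1.82 ± 0.46 (SE), adjusted p = 0.00759). On day 7 it had the largest fold change of the called members, 2.87 ± 0.52 (SE) (adjusted p = 0.00028), from 86.5, 55.5, 221, 52.3 and 64.5 CPM after MCAO against 17.7, 8.87, 23.4 and 3.19 CPM in sham. The day 7 shams were themselves low: the control held 26.8, 51.1, 39.5 and 26.2 CPM, and against it the day 7 log2 fold change was 1.41 ± 0.47 (SE) and was not called (adjusted p = 0.0834). Without sham day 7 replicate D the value against sham was 2.51 (adjusted p = 0.00486).

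Ctsl, an endopeptidase of all cells, was likewise low in the shams of day 7. It read 59.5, 60.9, 66.3 and 63.2 CPM in sham and 74.7, 100.3, 318, 155 and 304 CPM after MCAO on day 3 (log2 fold change 1.61 ± 0.36 (SE), adjusted p = 0.00183), with replicates C and E highest and replicate A just above the shams. On day 7 the levels were 41.8, 28.5, 48.5 and 19.6 CPM in sham and 134, 112, 347, 122 and 137 CPM after MCAO (2.31 ± 0.38 (SE), adjusted p = 7.52e-05). The control, at 60.8, 90.5, 69.9 and 68.3 CPM, was above all 4 of those shams, and against it the day 7 value was 1.24 ± 0.35 (SE), without a call (adjusted p = 0.0353).

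Ctsb, an abundant endopeptidase and carboxypeptidase, read 316, 241, 220.5 and 366 CPM in sham and 249.8, 643, 1168, 687 and 1119.6 CPM after MCAO on day 3. Replicate A lay within the shams and the other 4 libraries above them (log2 fold change 1.43 ± 0.34 (SE), adjusted p = 0.00376). By day 7 Ctsb read 312, 199, 281 and 216 CPM in sham and 381, 393, 2215, 362 and 431 CPM after MCAO, so that replicate C was over 5 times as high as the other 4. The day 7 log2 fold change was 1.58 ± 0.34 (SE) (adjusted p = 0.00205) with replicate C and 0.64 (adjusted p = 0.106) without it.

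Ctsf, which is expressed widely, was not called on either day. It read 37.7, 37.8, 46.2 and 34.2 CPM in sham and 36.8, 40.7, 33.0, 27.3 and 32.6 CPM after MCAO on day 3, where the groups overlapped (log2 fold change -0.19 ± 0.18 (SE), adjusted p = 0.561).

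**Figure D3:**
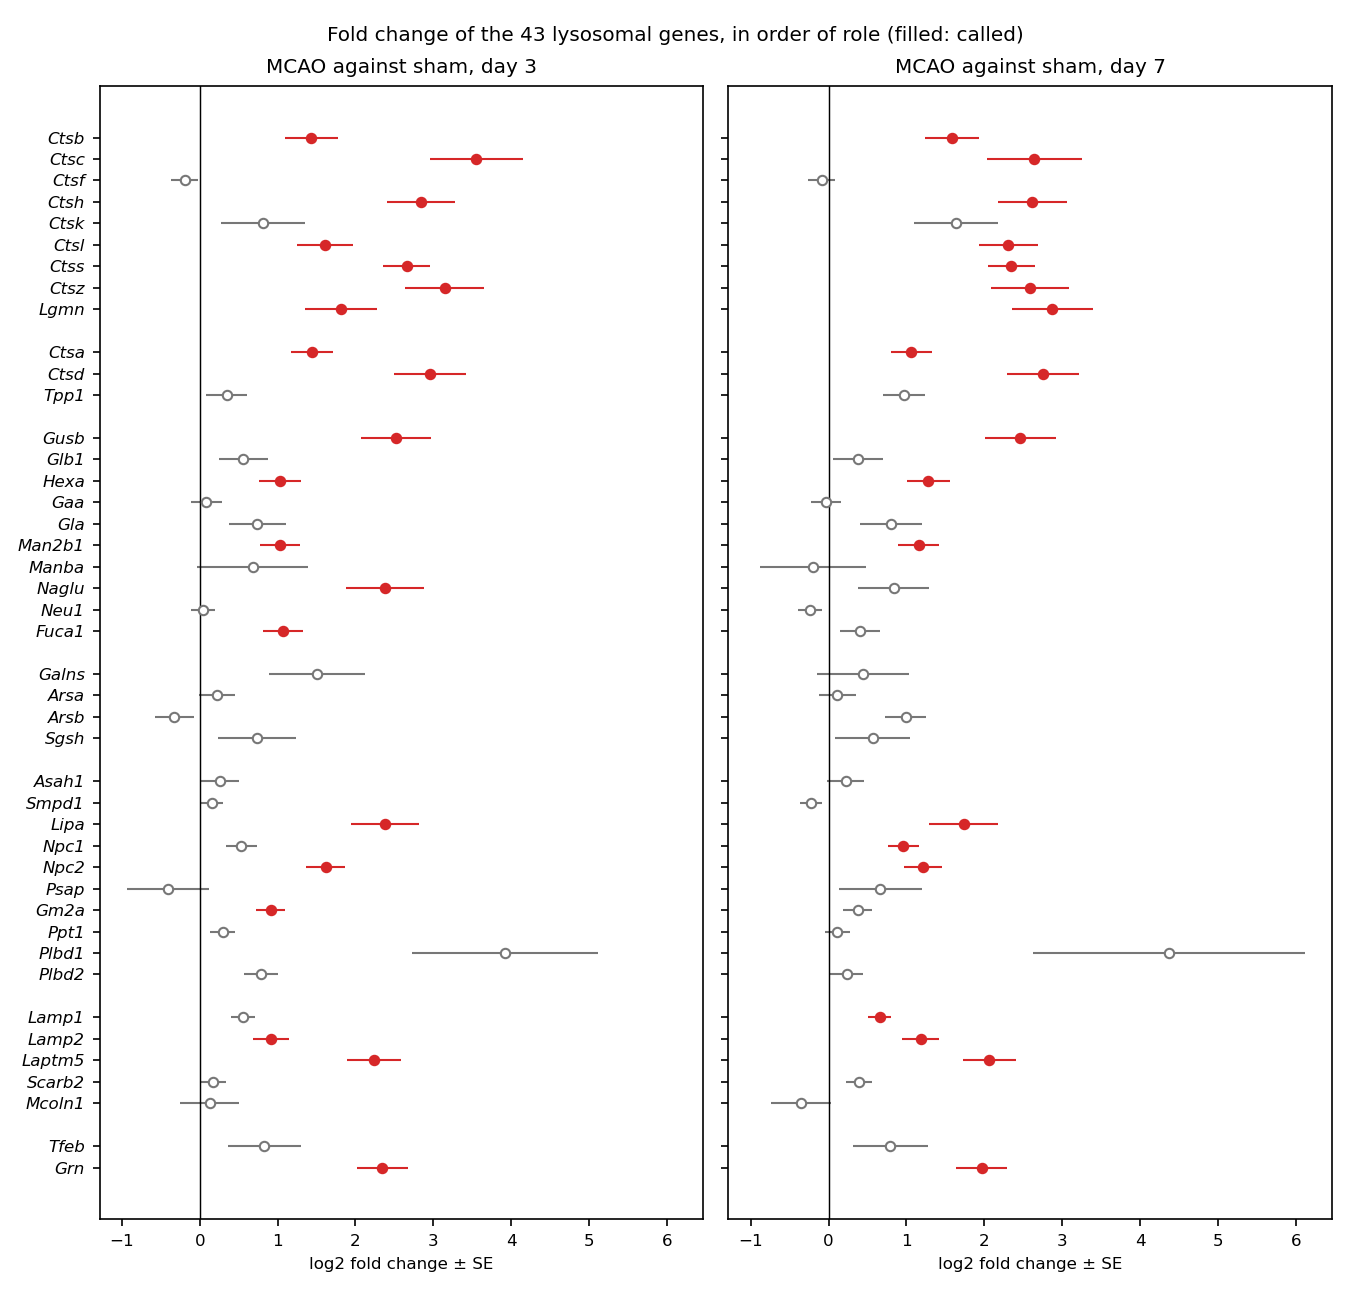
Log2 fold change (x axis, bars: SE) of each of the 43 lysosomal genes (y axis, in order of role) for MCAO against sham on day 3 and day 7, filled red where called. Called genes range from 0.91 (Gm2a) to 3.55 (Ctsc) on day 3 and from 0.66 (Lamp1) to 2.87 (Lgmn) on day 7, and the open point with the widest bar is Plbd1, whose fitted value rests on few counts, with shams at 0 on day 7.

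The aspartic protease Ctsd was the highest member in most MCAO libraries of day 3 and day 7 and was below Psap in the median control. It read 349.8, 348, 317 and 378 CPM in the control, 351, 321, 309 and 339 CPM in sham day 3 and 343, 329, 409.6 and 436 CPM at 24 h after MCAO, with little spread. On day 3 after MCAO it read 474, 1824, 4122, 2419.5 and 4004 CPM, and on day 7 809, 985, 9558, 922 and 1455 CPM beside 372, 378, 334 and 548 CPM in sham. All 5 libraries of each day lay above all shams, replicate A the least on day 3 and replicate C by far the most on day 7. The log2 fold change was 2.96 ± 0.47 (SE) on day 3 (adjusted p = 1.56e-05) and 2.75 ± 0.46 (SE) on day 7 (adjusted p = 0.000107). Without day 3 replicate A the first was 3.23, and without day 7 replicate C the second was 1.35 (adjusted p = 0.00419).

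Ctsa, a serine carboxypeptidase that also holds sialidase and beta-galactosidase in a complex, rose less. On day 3 it read 36.6, 29.5, 31.3 and 37.5 CPM in sham and 40.04, 67.8, 126, 87.4 and 138 CPM after MCAO (log2 fold change 1.45 ± 0.27 (SE), adjusted p = 0.000223), and on day 7 45.8, 55.5, 40.3 and 38.8 CPM and 56.0, 72.8, 205, 64.8 and 73.9 CPM (1.06 ± 0.27 (SE), adjusted p = 0.00745). Without day 7 replicate C the value was 0.57 (adjusted p = 0.143). The groups did not overlap on either day, though on day 7 replicate A was less than 1 CPM above the highest sham. The 2 enzymes it binds were not called: Neu1 had a log2 fold change of 0.04 ± 0.15 (SE) and Glb1 of 0.56 ± 0.31 (SE) on day 3. Tpp1, a tripeptidyl peptidase, was not called either (0.35 ± 0.26 (SE) on day 3 and 0.97 ± 0.27 (SE), adjusted p = 0.0156, on day 7).

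**Figure D4:**
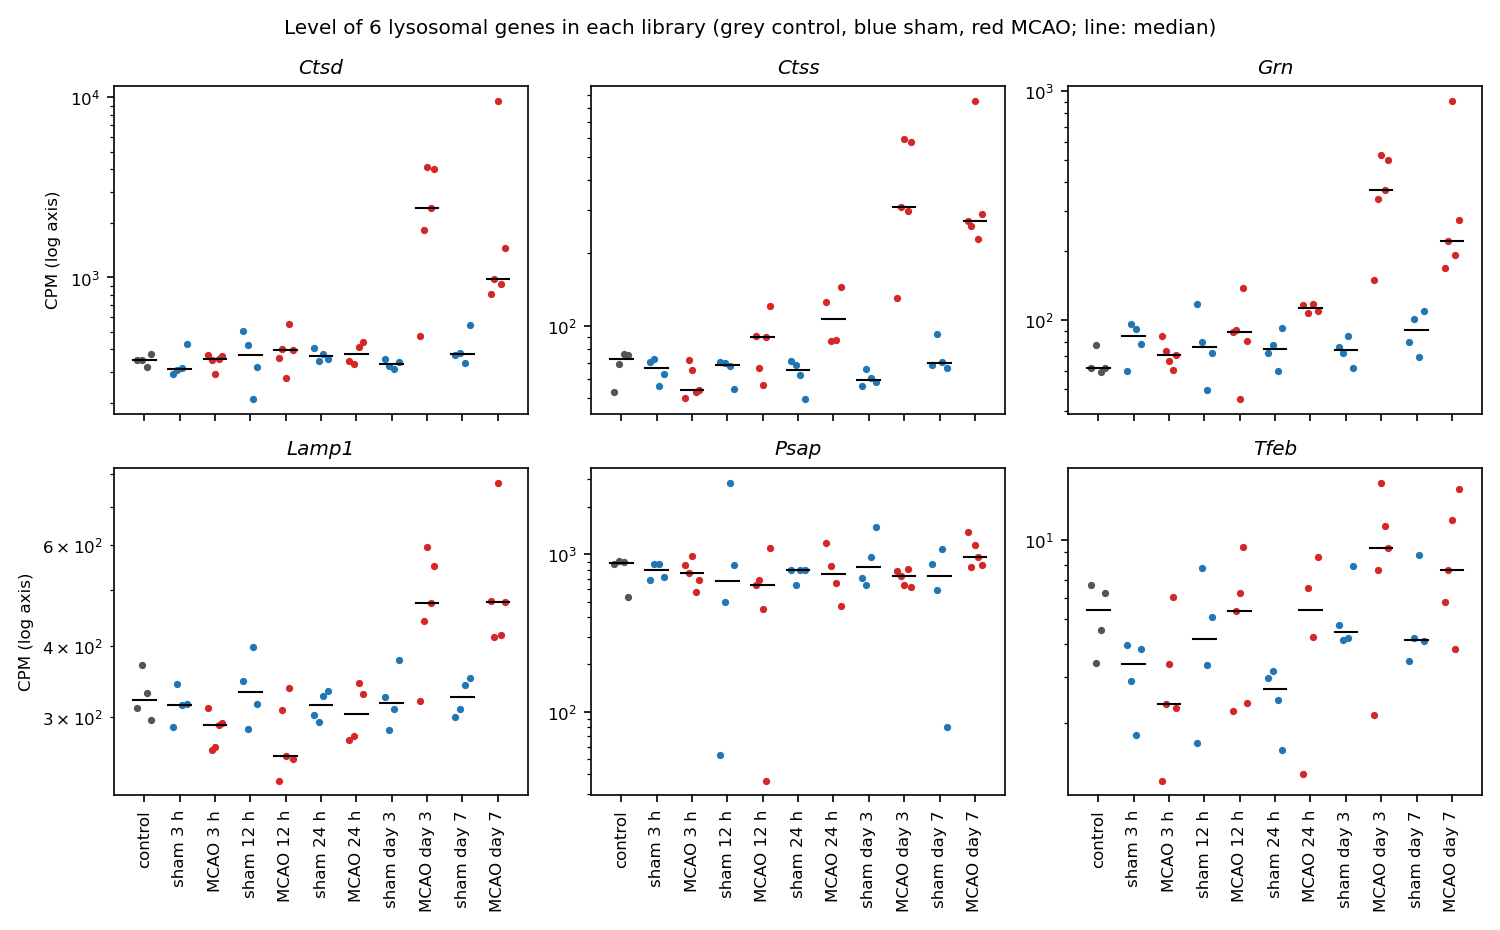
CPM (y axis, log scale) of Ctsd, Ctss, Grn, Lamp1, Psap and Tfeb in each of the 48 libraries by group (x axis; grey control, blue sham, red MCAO; line: median). Ctsd lies between 474 and 4122 CPM on day 3 after MCAO against 309 to 351 CPM in sham, and Psap falls below 80 CPM in 1 MCAO and 2 sham libraries.

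Glycosidases were divided, with 5 of 10 rising on day 3 and 3 of 10 on day 7. Gusb, the beta-glucuronidase, read 5.80, 8.77, 6.07 and 13.1 CPM in sham and 15.5, 36.6, 79.9, 49.8 and 59.9 CPM after MCAO on day 3, with replicate A closest to the shams. Its log2 fold change was 2.52 ± 0.45 (SE) (adjusted p = 9.6e-05), and on day 7 it was 2.46 ± 0.46 (SE) (adjusted p = 0.000388) from 24.2, 26.5, 131, 17.8 and 21.3 CPM against 10.3, 6.07, 10.4 and 5.47 CPM. Without day 7 replicate C the value was 1.49 (adjusted p = 0.0133). Naglu, which removes N-acetylglucosamine from heparan sulfate, was at 5.44, 3.69, 2.80 and 2.34 CPM in sham and 6.94, 18.5, 29.5, 19.0 and 21.6 CPM after MCAO on day 3, without overlap (log2 fold change 2.38 ± 0.50 (SE), adjusted p = 0.001). On day 7 replicate C stood at 48.8 CPM and the other 4 MCAO libraries, at 4.61, 9.16, 12.95 and 12.5 CPM, lay among or near the shams (6.29, 12.6, 7.09 and 12.8 CPM; 0.83 ± 0.46 (SE), adjusted p = 0.263).

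Hexa, the alpha subunit of beta-hexosaminidase, read 46.1, 32.3, 70.5 and 68.9 CPM in sham and 60.3, 95.3, 153, 115 and 133 CPM after MCAO on day 3, and 45.8, 55.1, 67.1 and 47.4 CPM and 87.7, 81.4, 302, 89.7 and 93.3 CPM on day 7. Replicate A of day 3 lay inside the shams, and on day 7 there was no overlap (log2 fold changes 1.03 ± 0.27 (SE), adjusted p = 0.00988, and 1.28 ± 0.28 (SE), adjusted p = 0.00192). Leaving out day 7 replicate C, the value was 0.71 (adjusted p = 0.0497). Man2b1, the alpha-mannosidase, read 31.2, 26.3, 21.5 and 46.8 CPM in sham and 49.1, 55.6, 86.9, 55.2 and 76.2 CPM after MCAO on day 3 (log2 fold change 1.04 ± 0.26 (SE), adjusted p = 0.00573), all 5 above the shams. Day 7 gave 22.3, 38.3, 28.3 and 34.7 CPM and 53.6, 47.3, 151, 34.5 and 60.7 CPM (1.16 ± 0.26 (SE), adjusted p = 0.00292), with replicate D inside the shams. Without day 7 replicate C the value was 0.66 (adjusted p = 0.066). Fuca1, the alpha-fucosidase, read 25.4, 34.6, 25.2 and 27.2 CPM in sham and 28.8, 71.4, 65.4, 60.5 and 69.2 CPM after MCAO on day 3, where 4 libraries formed a tight group above the shams and replicate A stayed among the shams (log2 fold change 1.08 ± 0.26 (SE), adjusted p = 0.00424). On day 7 Fuca1 read 34.3, 30.3, 27.3 and 60.7 CPM and 41.0, 45.3, 97.0, 32.1 and 38.8 CPM and was not called (0.40 ± 0.26 (SE), adjusted p = 0.345), with sham replicate D above all but replicate C. Gaa, the alpha-glucosidase that breaks down glycogen, was well counted and near level, at 105 to 156 CPM in sham and 115 to 177 CPM after MCAO on day 3 (log2 fold change 0.08 ± 0.20 (SE)). Gla had a log2 fold change of 0.74 ± 0.37 (SE) on day 3 (adjusted p = 0.232). Manba, with 0 to 4.80 CPM on day 3 after MCAO, stood at 0 to 9 counts a library (0.68 ± 0.71 (SE)).

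No sulfatase was called on either day. Arsa, arylsulfatase A, read 14.5 to 17.3 CPM in sham and 10.7 to 22.6 CPM after MCAO on day 3 (log2 fold change 0.22 ± 0.23 (SE)). Arsb had values of opposite sign on the 2 days, -0.32 ± 0.25 (SE) on day 3 (adjusted p = 0.488) and 0.99 ± 0.26 (SE) on day 7 (adjusted p = 0.0122). Galns and Sgsh, both below 10 CPM in all sham libraries, had log2 fold changes of 1.51 ± 0.61 (SE) and 0.74 ± 0.50 (SE) on day 3.

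In lipid handling, 3 of 10 members rose on day 3 (Lipa, Npc2 and Gm2a) and 3 on day 7 (Lipa, Npc2 and Npc1). Lipa, the acid lipase that frees cholesterol and fatty acids from lipoproteins, read 18.5, 14.3, 16.3 and 14.5 CPM in sham and 17.6, 52.0, 146, 44.9 and 155 CPM after MCAO on day 3. Replicates C and E were about 3 times as high as B and D, and A was within the shams (log2 fold change 2.38 ± 0.44 (SE), adjusted p = 0.000173). The day 7 values were 13.2, 16.3, 17.4 and 15.5 CPM and 23.1, 21.4, 155, 26.4 and 36.9 CPM (1.73 ± 0.44 (SE), adjusted p = 0.00868), and without replicate C the value was 0.78 (adjusted p = 0.236). Npc2, which binds cholesterol in the lumen and hands it to Npc1, read 110.2, 118, 122 and 114 CPM in sham and 175, 289.6, 485, 379.9 and 455 CPM after MCAO on day 3 without overlap (log2 fold change 1.62 ± 0.25 (SE), adjusted p = 1.14e-05). They were 135, 138, 107 and 169 CPM and 202, 220.4, 653, 222 and 296 CPM on day 7, again without overlap (1.21 ± 0.25 (SE), adjusted p = 0.00107). Without day 7 replicate C the value was 0.77 (adjusted p = 0.0216).

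Npc1, the membrane transporter that takes over that cholesterol, had a smaller fold change than Npc2 on day 3. It read 79.1, 74.3, 71.9 and 55.7 CPM in sham and 71.0, 91.7, 136, 93.3 and 118 CPM after MCAO and was not called (log2 fold change 0.54 ± 0.19 (SE), adjusted p = 0.0796). On day 7 all 5 MCAO libraries, at 62.3, 74.8, 161, 74.4 and 109 CPM, lay above the shams at 58.3, 42.5, 51.8 and 45.6 CPM (0.96 ± 0.20 (SE), adjusted p = 0.00148). Leaving out replicate C, the value was 0.69 (adjusted p = 0.021). Against the control, at 70.9, 55.6, 67.7 and 66.0 CPM, the day 7 value of 0.56 ± 0.20 (SE) was not called (adjusted p = 0.112). The difference between Npc1 and Npc2 was not tested. Gm2a, the activator that presents GM2 ganglioside to beta-hexosaminidase, read 45.7, 42.9, 36.0 and 38.9 CPM in sham and 52.8, 69.6, 86.9, 67.9 and 108 CPM after MCAO on day 3 without overlap (log2 fold change 0.91 ± 0.19 (SE), adjusted p = 0.000754). On day 7 the groups overlapped, at 52.6, 62.5, 45.2 and 73.4 CPM and 64.0, 74.8, 114, 71.5 and 55.7 CPM (0.37 ± 0.18 (SE), adjusted p = 0.209).

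Psap, the precursor of the saposins that activate sphingolipid hydrolases, made up a median of 24.8% of the members' sum in the control, more than any other member, and 10.4% on day 3 and 16.0% on day 7 after MCAO. It is described here because of its spread, which was seen in the values. It was not called on day 3 (-0.41 ± 0.53 (SE), adjusted p = 0.702) or day 7 (0.66 ± 0.53 (SE), adjusted p = 0.481). In 44 of 48 libraries it lay between 451 and 1497 CPM, but MCAO 12 h replicate D, sham 12 h replicate A and sham day 7 replicate D held 36.5, 53.0 and 79.4 CPM, and sham 12 h replicate C held 2853 CPM. In the 3 low libraries Lgmn was at 6.47, 2.23 and 3.19 CPM and Tpp1 at 22.4, 46.9 and 31.5 CPM, while Ctsd, at 554, 506 and 548 CPM, was the highest library of its group in each case, and in sham 12 h replicate C, where Psap was highest, Ctsd was lowest of its group (212 CPM).

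Among the other lipid genes, Asah1, Smpd1 and Ppt1 had log2 fold changes between 0.16 and 0.29 on day 3 and were not called. Plbd2 missed the threshold on day 3 (0.79 ± 0.22 (SE), adjusted p = 0.0131). Plbd1 was at 0 counts in all 4 sham day 7 libraries and at 1 to 4 counts after MCAO, so no fold is given. On day 3 it read 0, 0.904, 21.97, 0.977 and 5.73 CPM after MCAO, highest in replicate C, and at 12 h 0, 0, 2.61, 0 and 4.17 CPM, highest in replicate E. These 2 libraries also held the highest sums of the 7 neutrophil markers tested in their groups, 6.41, 19.4, 634, 13.7 and 77.1 CPM over the libraries of day 3 and 12.2, 31.5, 174, 177 and 1716 CPM over those of 12 h, and the part of neutrophils in the Plbd1 values was not tested.

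Of the membrane proteins, 2 of 5 rose on day 3 and 3 of 5 on day 7. Laptm5, a transmembrane protein of leukocyte lysosomes, read 27.6, 34.2, 23.4 and 33.3 CPM in sham and 43.8, 110.3, 200.2, 126 and 215 CPM after MCAO on day 3, and 32.6, 41.1, 27.8 and 31.9 CPM and 79.0, 86.5, 353, 82.5 and 100.2 CPM on day 7. The groups did not overlap (log2 fold changes 2.24 ± 0.35 (SE), adjusted p = 1.15e-05, and 2.07 ± 0.34 (SE), adjusted p = 0.000106), and without day 7 replicate C the second was 1.38 (adjusted p = 0.00212). Lamp2, which is needed for the fusion of autophagosomes and for chaperone-mediated autophagy, read 81.2, 81.7, 84.1 and 87.6 CPM in sham and 94.5, 135, 244, 123 and 194 CPM after MCAO on day 3 (log2 fold change 0.92 ± 0.23 (SE), adjusted p = 0.00723), all 5 above the shams. Levels on day 7 were 66.3, 54.1, 76.9 and 58.4 CPM and 102, 98.7, 294, 113 and 119 CPM, again without overlap (1.18 ± 0.24 (SE), adjusted p = 0.000979). Leaving out day 7 replicate C, the value was 0.76 (adjusted p = 0.0197).

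Lamp1, an abundant glycoprotein of the lysosomal membrane, read 325, 284, 309.7 and 378 CPM in sham and 319, 441, 595, 475 and 553 CPM after MCAO on day 3, with replicate A within the shams. It was not called (log2 fold change 0.56 ± 0.15 (SE), adjusted p = 0.0121). By day 7 it read 299, 309.8, 341 and 351 CPM and 479.9, 415, 773, 418 and 477 CPM without overlap and was called with the smallest fold change of the 19 (0.66 ± 0.15 (SE), adjusted p = 0.00355). Without replicate C it was 0.46 (adjusted p = 0.0429). Scarb2, the receptor that carries glucocerebrosidase to the lysosome, and Mcoln1, a calcium channel of its membrane, were not called, with log2 fold changes of 0.18 ± 0.17 (SE) and 0.13 ± 0.37 (SE) on day 3.

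Grn, the precursor of the granulins, a secreted protein that is taken into lysosomes and whose loss causes frontotemporal dementia, rose on both days. It read 76.5, 72.0, 85.0 and 61.8 CPM in sham and 149, 337, 524, 371 and 499 CPM after MCAO on day 3 (log2 fold change 2.35 ± 0.33 (SE), adjusted p = 2.95e-06), and 80.1, 101, 68.7 and 109 CPM and 168, 221, 907, 193 and 275 CPM on day 7 (1.97 ± 0.33 (SE), adjusted p = 9.62e-05). No MCAO library overlapped the shams, and at 24 h the 4 MCAO libraries, at 117, 107, 118 and 110.1 CPM, also lay above their shams at 71.7, 77.7, 59.8 and 92.3 CPM, without a call (log2 fold change 0.58 ± 0.34 (SE), adjusted p = 0.629). Tfeb, the transcription factor, was a low transcript. It read 4.71, 4.15, 4.20 and 7.96 CPM in sham and 2.14, 7.68, 16.5, 11.2 and 9.25 CPM after MCAO on day 3, and 3.43, 4.20, 8.72 and 4.11 CPM and 5.77, 7.63, 11.9, 3.84 and 15.7 CPM on day 7. The groups overlapped on both days, and Tfeb was not called (log2 fold changes 0.83 ± 0.47 (SE), adjusted p = 0.3, and 0.79 ± 0.48 (SE), adjusted p = 0.321). It rested on 4 to 33 counts in the day 3 MCAO libraries.

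Over the 21 members called on neither day, log2 fold changes against sham ran from -0.41 upwards on day 3 (median 0.29, 18 above 0) and from -0.35 upwards on day 7 (median 0.38, 15 above 0), and Plbd1, which rests on few counts, gave the top value on both days. Plbd1 apart, the highest were Galns on day 3 (1.51 ± 0.61 (SE)) and Ctsk on day 7 (1.64 ± 0.54 (SE)). These members also had lower levels, with a median of 14.8 CPM over all libraries against 56.2 CPM for the 22 called ones. Their sum was 1801, 1654, 1756, 1813 and 1720.2 CPM on day 3 after MCAO and 1556, 1471, 1864 and 2447 CPM in sham, which overlap. Psap, which is among them, held much of this sum and of its spread. It read 785, 730, 641, 805 and 622 CPM after MCAO and 710, 635, 964 and 1497 CPM in sham. A sum without Psap was not taken, so the overlap does not show that the rest of these members stayed level.

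Measured against the intact control in place of sham, 17 members rose on day 3 and 0 fell (2.81% and 0.280% of all genes), and all 17 were also called against sham. On day 7, 13 rose and 0 fell (1.09% and 0.411% of all genes), again all called against sham. The same MCAO libraries enter both comparisons. Ctsb, Ctsc, Ctsl, Lgmn, Lipa and Npc1 were called on day 7 against sham and not against control. At 24 h no member was called by edgeR or DESeq2 against control (0.275% of all genes were called), and 5 passed an unadjusted p under 0.05 (Ctsc, Ctss, Galns, Lamp2 and Grn), all higher after MCAO, where 2191 of the 19970 genes passed it.

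Against control on day 7, 6 members were called without MCAO replicate C (0.326% of all genes higher and 0.116% lower), 6 without control replicate A (0.346% and 0.0652%), 6 without control replicate C (0.526% and 0.341%) and 7 without control replicate D (0.386% and 0.0552%). On day 3, 11 were called without MCAO replicate C (1.71% and 0.121%), without control replicate A (1.84% and 0.115%) or without control replicate C (1.80% and 0.165%). In a fit of only the groups compared, 10 members were called on day 3 (1.18% and 0.175% of 16564 genes) and 2 (Ctss and Grn) on day 7 (0.559% and 0.479% of 16280 genes).

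Between sham and control no member was called at 3 h, 12 h, 24 h, day 3 or day 7, in edgeR or in DESeq2, where 0%, 0.0351%, 0.0100%, 0% and 0% of all genes were called. At an unadjusted p under 0.05, 1 (Sgsh), 1 (Arsa), 0, 1 (Gm2a) and 2 members passed at these times, where 3.68%, 5.44%, 4.32%, 3.66% and 8.04% of all genes did. The 2 on day 7 were Ctsl and Lgmn, both lower in sham, with log2 fold changes of -1.07 ± 0.39 (SE) and -1.46 ± 0.54 (SE) (adjusted p = 0.576 for both).

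The change between 24 h and day 3 was tested as the difference of the MCAO against sham log2 fold changes. No member passed in edgeR or DESeq2 (0.0100% of all genes did). At an unadjusted p under 0.05, 20 members passed, all 20 with a larger value on day 3, where 8.84% of all genes passed. The median difference over the members was 0.74, beside 0.02 over all genes, and the smallest adjusted p was that of Ctsd (difference 2.92 ± 0.63 (SE), adjusted p = 0.0975). A rise between 24 h and day 3 is therefore given by the values of each time and not by a call on the difference. Between day 3 and day 7 the median difference was -0.17, and the smallest adjusted p was that of Arsb (1.31 ± 0.37 (SE), adjusted p = 0.0785).

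Markers of phagocytes also rose on day 3 and day 7. Of 11 markers of microglia and macrophages (such as Aif1, Csf1r, C1qa and Tyrobp), 9 rose on day 3 and 7 on day 7 against sham, and none of the 11 was at 0 in any group. Their summed level was 386 to 517 CPM in the control. At 24 h it was 535, 439, 380 and 428 CPM in sham and 868, 692, 773 and 905 CPM after MCAO. On day 3 it was 417, 423, 409 and 317 CPM in sham and 800.2, 1736, 3605, 2312 and 3136 CPM after MCAO, and on day 7 464, 581, 483 and 633 CPM and 1011, 1356, 4588, 1035 and 1532 CPM. The 5 MCAO libraries of day 3 fell in the same order (A, B, D, E, C) by this sum and by the sum of the lysosomal genes. On day 7 the orders differed (A, D, B, E, C by the markers and D, B, A, E, C by the lysosomal genes), with replicate C highest in both. At 24 h the lysosomal sum was 3386, 3198, 3423 and 3445 CPM in sham and 3988, 3511, 3622 and 3738 CPM after MCAO. The part of a change in cell number in the lysosomal values was not tested, and in bulk tissue more cells of a type and more RNA per cell cannot be told apart.

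**Figure D5:**
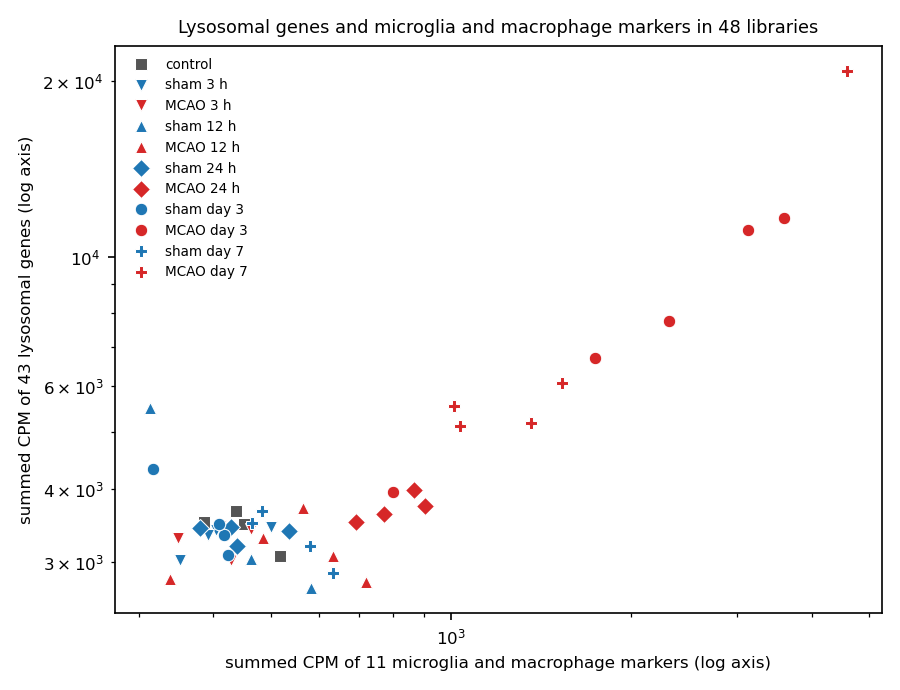
Summed CPM of the 43 lysosomal genes (y axis, log scale) against summed CPM of 11 microglia and macrophage markers (x axis, log scale) in each of the 48 libraries, by group. All 5 MCAO libraries of day 7 and 4 of day 3 lie at the upper right, from 5119 to 20797 CPM of lysosomal genes, and MCAO day 3 replicate A, at 3945 CPM, lies beside the 24 h libraries.

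Other cell types moved as well. Of 9 markers of monocytes and border macrophages, Pf4, F13a1 and Ccr2 rose on day 3 and Ms4a7 on day 7, and their sum was 14.3 to 16.3 CPM in sham and 24.6 to 237 CPM after MCAO on day 3, with Ly6c2 and Chil3 at 0 in all shams of day 3 and day 7. Of 7 neutrophil markers tested, S100a8 and S100a9 rose on day 3 and 0 on day 7 by edgeR or DESeq2 (2 at an unadjusted p under 0.05), with Retnlg, Cxcr2 and Mmp8 at 0 in the shams of both days. Of 6 fibroblast markers, 3 rose on day 3 (Col1a1, Col3a1 and Dcn) and 5 on day 7 (these with Col1a2 and Pdgfra), and day 7 replicate C held 5491 CPM of them against 169.6 to 506 CPM in the other 4 libraries. Of 6 endothelial markers, Pecam1 and Cdh5 rose on day 3 and 0 on day 7 by edgeR or DESeq2 (2 at an unadjusted p under 0.05). Of 8 astrocyte markers, Gfap and Aqp4 rose on day 3 and these with Gja1 on day 7. Of 7 oligodendrocyte markers, 0 were called on day 3 by edgeR (1 by DESeq2, 3 at an unadjusted p under 0.05). Of 10 neuron markers, Snap25 fell on day 3 and Rbfox3 on day 7, and their sum was 10364, 10208, 6692, 10422 and 10771 CPM on day 7 after MCAO, lowest in replicate C, against 12690.5, 11700.3, 12489 and 13612 CPM in sham. The part of these cells in the lysosomal values was not tested.

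The rest of the lysosomal system moved in part. Of 19 other hydrolases, 4 rose on day 3 (Scpep1 and Ifi30 among them), 5 on day 7 (Scpep1, Dnase2a, Ctso and Ifi30 among them) and 0 fell, with median log2 fold changes of 0.77 and 1.19. Ifi30, a thiol reductase of antigen-presenting cells, read 5.14 to 8.31 in sham and 13.9 to 159.8 after MCAO on day 3 in CPM (3.60 ± 0.54 (SE), adjusted p = 8.31e-06). Of 14 other membrane proteins, Slc11a1, Cd68 and Cd63 rose on day 3, and on day 7 Cd68 and Cd63 rose and Laptm4b fell. In CPM, Cd68, a macrophage protein, read 4.71 to 12.6 in sham and 13.3 to 145 after MCAO on day 3 (3.52 ± 0.55 (SE), adjusted p = 1.63e-05).

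No subunit of the proton pump was called higher. Of 19 V-ATPase subunits, which acidify the lysosome and, in neurons, synaptic vesicles, 0 were called on day 3 by edgeR (1 by DESeq2), and on day 7 Atp6v1g2 fell (-0.64 ± 0.16 (SE), adjusted p = 0.00738). At an unadjusted p under 0.05, 5 passed on day 3 and 10 on day 7, of which 2 and 2 were higher after MCAO, and the median log2 fold changes were -0.04 and -0.07. Of 9 genes of mannose 6-phosphate and sortilin sorting, 0 were called by edgeR on either day (1 and 1 by DESeq2, 2 and 5 at an unadjusted p under 0.05). Of 13 genes of the Tfeb family and of nutrient sensing, 0 were called by edgeR or DESeq2 on either day (4 and 3 at an unadjusted p under 0.05). Of 16 autophagy genes, 0 were called on day 3 by edgeR (1 by DESeq2, 2 at an unadjusted p under 0.05), and on day 7 Gabarap rose (0.73 ± 0.18 (SE), adjusted p = 0.00516) and Gabarapl1 fell (-0.61 ± 0.14 (SE), adjusted p = 0.00279). Whether these lists differ from the 43 genes was not tested.

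Cystatins, which inhibit cysteine cathepsins, were tested for 4 of 8 genes. Cst7, a cystatin of activated microglia and other leukocytes, was called higher on both days. In CPM it was at 0 in all day 3 shams and read 0.534 to 14.0 after MCAO, and on day 7 it read 0 to 0.572 in sham and 2.88 to 26.8 after MCAO, so that no fold is given (adjusted p = 0.000224 and 0.00136). Cst3, the abundant secreted cystatin, was not called on day 3 (-0.09 ± 0.23 (SE), adjusted p = 0.877) and rose on day 7, at 664 to 1535 in sham and 2148 to 3015 after MCAO in CPM (1.11 ± 0.24 (SE), adjusted p = 0.00192).

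The scaling of the libraries changed the counts of called members, and none was called lower under either scaling. Scaled to the ERCC spike-ins in place of TMM, the median log2 fold change against sham over all genes was -0.22 on day 3 and 0.14 on day 7. Over all genes 463 were then called higher and 131 lower on day 3, in place of 750 and 52, and 403 and 86 on day 7, in place of 413 and 285. Of the 43 members, 12 rose on day 3 and 19 on day 7, 0 fell, and their median was 0.64 on day 3 and 0.95 on day 7. Against control, where the median of all genes was -0.28 on day 3 and -0.11 on day 7, the calls of day 3 were 349 higher and 345 lower, in place of 561 and 56, and 150 and 90 on day 7, in place of 218 and 82. Of the members, 10 rose on day 3 and 8 on day 7 against control and 0 fell.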

How the data were processed

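RNA of 48 libraries was made into QuantSeq 3′ libraries with ERCC spike-ins. Per the labels and the study's methods, the authors trimmed reads (Trimmomatic), removed rRNA reads (SortMeRNA), aligned with STAR 2.5.2b to GRCm38 and counted uniquely aligned reads per gene with htseq-count in union mode. The deposited values used here are these raw counts. A deposited table of normalized values was not used. Symbols and positions were taken from Gencode vM21 of the same build. Reads outside genes made up 21.1 to 30.7%, reads aligned to several places 24.0 to 37.3% and ambiguous reads 0.343 to 0.475% of all reads counted, and these were left out with the ERCC reads.

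Of 46983 genes, the 19970 with over 10 counts summed over all libraries were kept. One edgeR 4.0.16 quasi-likelihood model (R 4.3.3, TMM) was fitted to all 11 groups, and calls needed a p under 0.01 after Benjamini-Hochberg adjustment and a log2 fold change beyond 0.58 either way, both being the study's own thresholds. Alternatives were DESeq2 1.42.0, its size factors, other filters, ERCC scaling, fits of the compared groups alone, a replicate block and leaving out each library. Fits without a library used the dispersion trend of all libraries. On simulated counts for MCAO against sham on day 3 (19659 genes), the test called 65% of genes changed by 1 and 96% of genes changed by 1.5 on the log2 scale. The changed genes were drawn only from genes above a floor on mean CPM. The members called on neither day had a median of 14.8 CPM, below that floor, so these shares do not hold for members with low counts. Simulated counts were drawn independently for each gene, so no simulated library was shifted as a whole. In the data, the median log2 ratio of the 22 called members to sham ran from 0.33 (replicate A) to 2.52 (replicate C) over the MCAO libraries of day 3. The shares do not cover such shifts of whole libraries. No pair of replicates was identical or agreed within sampling noise. Members called on day 3 or day 7, and Tfeb, are described library by library, and other genes by ranges, except that Psap, Plbd1, Ctsk, Ctsf and genes named beside a small count were chosen after their values were seen. The members, the lists and the roles were chosen with earlier results of these data known. Some genes of these lists are not reported here by name. Promoters were read from RefSeq. Intervals for counting error are not given, and depth was 1522668 to 2826735 gene counts a library (median 1935856).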

Additional observations from a re-analysis of the deposited data

Results flagged for a closer look

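A library far from the rest of its group was sought by the ratio of its gap from the nearest library to the group's range. Each case was 1 of 24 members in 1 group of 4 or 5 libraries. Such a library was found in 26 of 120 cases, where chance gives about 1 in 20 for a single case. The same libraries enter the cases of many members, so the 120 cases are not independent and 26 is not tested against that rate. MCAO day 7 replicate C gave 20 of the 26, which are not independent of each other.

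In that library the proteases Ctsb, Ctsc, Ctsh, Ctsl, Ctss and Ctsz stood at 2215, 99.9, 282, 347, 853 and 287 CPM, and Lgmn, Ctsa and Ctsd at 221, 205 and 9558 CPM. Gusb, Hexa, Man2b1, Naglu and Fuca1 stood at 131, 302, 151, 48.8 and 97.0 CPM. Lipa and Npc2 stood at 155 and 653 CPM, Lamp1, Lamp2 and Laptm5 at 773, 294 and 353 CPM, and Grn at 907 CPM. All 20 lay above the other 4 libraries of their group. The same library held 5491 CPM of the 6 fibroblast markers, 4588 CPM of the 11 microglia and macrophage markers and 6692 CPM of the 10 neuron markers, the highest, the highest and the lowest of its group. Their part in the result was not tested.

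Outside that library, Fuca1 in MCAO day 3 replicate A, at 28.8 CPM, lay below the other 4 libraries of its group, and Psap in control replicate D, at 536 CPM, below the other controls. Ctss in sham day 7 replicate B stood at 92.4 CPM and Grn in control replicate B at 78.1 CPM. Tfeb stood at 7.96 CPM in sham day 3 replicate D and at 8.72 CPM in sham day 7 replicate C.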

How the results depend on the processing

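The counts of calls on day 3 and day 7 moved most when only the groups compared were fitted (which changes the spread, the scaling and the genes kept together) and when single libraries were left out. In the former, 11 members were called against sham on day 3, 3 on day 7 and 1 (Ctsc) at 24 h, and 10, 2 and 2 (Ctsc and Grn) against control. At 24 h those fits called 0.319% of all genes against sham and 0.787% against control. Scaling to the ERCC spike-ins gave 12 against sham on day 3, and 10 and 8 against control on day 3 and day 7. Without the filter on low counts, 1 member (Ctsc) was called at 12 h against sham and 2 (Ctss and Ctsd) in the difference between day 3 and 24 h. Over all genes 0.643% and 0.0226% were called in these 2 comparisons. Leaving out 1 library gave 13 to 23 members on day 3 and 7 to 19 on day 7 against sham, and 11 to 21 and 6 to 16 against control. In those fits against control, 1.71% to 4.47% of all genes were called higher on day 3 and 0.326% to 1.26% on day 7. In the difference between day 3 and 24 h it gave 0 to 2, where Ctss and Ctsd passed without MCAO day 3 replicate A. Without that library 0.0552% of all genes passed in that difference. The libraries that moved a count by over 1.5 times are named beside the counts above.

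The replicate letters were not taken to pair the libraries. Of 20 pairs of same-letter sham and MCAO libraries of a time, 8 had correlated deviations over 0.1 (range -0.308 to 0.174). Pairs of different letters were not compared, so these values do not settle whether the letters pair libraries. With the letter as a replicate block, 19 and 17 members were called on day 3 and day 7 against sham, and 13 and 12 against control. Over all genes, 3.01% and 1.79% were then called higher and 0.215% and 1.23% lower against sham. Against control, 2.23% and 0.801% were called higher and 0.230% and 0.336% lower.

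The results checked for single members were those of the 22 members called on either day, with Tfeb and Psap. Most of these 48 results were therefore calls already, which left little room for a gain. Of 768 alternative values, 660 lay on the same side of the threshold and in the same direction, and 107 lost a call. A call was gained in 1 (Lamp1 on day 3 without MCAO replicate A), and 0 were of the opposite direction. Members outside this choice were not counted. Without that same library, Plbd1 (adjusted p = 0.00986) and Plbd2 (adjusted p = 0.00546) were also called by edgeR on day 3 against sham. Depth limits what can be said of members with few counts, such as Plbd1, Manba, Galns, Sgsh and Tfeb.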
